A study of Mus musculus with 45 samples.

Results

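The genes described here are 41 interferon-stimulated genes and sensors of foreign nucleic acid, listed for their known roles and matched by gene identifier among the 55401 genes of the deposited tables. EHMT2 is the histone methyltransferase that places H3K9me2, and its loss activates endogenous retroviruses such as MERVL, so the question put to these genes is whether repeat activation was followed by a response of the kind a virus provokes. Poly(A) RNA from mouse embryonic stem cells (mESCs) was sequenced in 45 libraries, in 15 groups of 3. In the time course and the washout, clonal EHMT2-dTAG-mcherry lines of BL6/129 background, in which the endogenous EHMT2 carries a degron and an mCherry reporter, were grown with DMSO or with dTAG-13, the compound that triggers degradation, for 24 h, 7 days or 15 days. The Recovery group received dTAG-13 for 7 days and then grew without it, in DMSO, for 8 days. In the sorted experiment, EHMT2-dTAG-mcherry-mervl-gfp cells, all from 1 clone that carries a MERVL-driven GFP reporter, were treated for 72 h with DMSO or dTAG-13 and split by flow cytometry into GFP-negative cells (mESCs) and GFP-positive cells (2-cell-like cells, 2CLCs). In the fourth experiment, WT J1 mESCs and DPPA4-deficient mESCs, made from that parental line with CRISPR/Cas9 (Dppa4 KO), were grown with DMSO or with UNC0638, an inhibitor of the enzymatic activity of EHMT2. The mESCs were kept on mouse embryonic fibroblast feeders, which are themselves able to express interferon genes.

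In an antiviral response, double-stranded RNA is bound in the cytoplasm by the helicases RIG-I (Ddx58) and MDA5 (Ifih1), and DNA by cGAS (Cgas). The RNA helicases signal through the mitochondrial adaptor MAVS to IRF3 and IRF7, which switch on interferon genes. Secreted interferon then acts through STAT and IRF9 proteins on a large set of effector genes, among them the IFIT, OAS and ISG15 families. Embryonic stem cells are known for a weak interferon response compared with differentiated cells.

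The promoters of 6 genes are shown, all chosen from effectors that hold the element described next. Ifit2 and Oasl2, which also recur in the results, held no match in this window and are not printed. The STAT2 and IRF9 complex binds the interferon-stimulated response element, searched here as GAAANNGAAA on both strands in the 250 bases upstream of RefSeq gene starts (assembly GRCm38.p6). Each sequence reads 5′ to 3′ along the gene's own strand, with matches to the element in capitals.

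Ifit1, chr19:34640639-34640888, plus strand: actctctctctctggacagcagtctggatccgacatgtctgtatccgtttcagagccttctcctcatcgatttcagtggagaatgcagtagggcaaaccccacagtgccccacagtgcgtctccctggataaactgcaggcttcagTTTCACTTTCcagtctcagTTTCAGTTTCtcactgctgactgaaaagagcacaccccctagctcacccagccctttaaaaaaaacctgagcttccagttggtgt

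Ifit3, chr19:34583279-34583528, plus strand: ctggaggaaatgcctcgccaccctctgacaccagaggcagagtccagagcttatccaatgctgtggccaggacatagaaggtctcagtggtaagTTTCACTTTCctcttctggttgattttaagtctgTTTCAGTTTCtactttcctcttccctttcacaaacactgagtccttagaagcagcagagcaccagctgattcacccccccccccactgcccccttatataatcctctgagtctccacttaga

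Ifit3b, chr19:34607707-34607956, plus strand: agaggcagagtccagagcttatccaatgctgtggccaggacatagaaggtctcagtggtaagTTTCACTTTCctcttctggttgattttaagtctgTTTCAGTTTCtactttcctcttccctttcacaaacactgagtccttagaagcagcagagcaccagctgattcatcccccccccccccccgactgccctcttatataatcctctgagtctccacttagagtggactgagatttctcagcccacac

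Isg15, chr4:156200819-156201068, minus strand: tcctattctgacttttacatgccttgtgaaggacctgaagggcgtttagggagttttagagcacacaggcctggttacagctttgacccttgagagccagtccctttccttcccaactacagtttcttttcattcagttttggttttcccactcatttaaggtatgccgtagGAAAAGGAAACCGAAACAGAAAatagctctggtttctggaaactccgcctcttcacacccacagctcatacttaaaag

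Rsad2, chr12:26456453-26456702, minus strand: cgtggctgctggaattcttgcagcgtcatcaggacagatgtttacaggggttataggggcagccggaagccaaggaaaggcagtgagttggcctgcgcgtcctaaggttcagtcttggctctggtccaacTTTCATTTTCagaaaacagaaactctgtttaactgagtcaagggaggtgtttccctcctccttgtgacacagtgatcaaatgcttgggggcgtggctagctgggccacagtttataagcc

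Cxcl10, chr5:92348890-92349139, minus strand: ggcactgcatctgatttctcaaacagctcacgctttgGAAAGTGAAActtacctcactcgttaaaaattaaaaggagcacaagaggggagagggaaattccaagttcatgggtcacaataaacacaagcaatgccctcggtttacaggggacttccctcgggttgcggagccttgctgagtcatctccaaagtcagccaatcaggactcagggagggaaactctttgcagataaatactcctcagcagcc

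Ifit1, Ifit3 and Ifit3b each held 2 matches, Rsad2 and Cxcl10 held 1, and Isg15 held 3 that overlap in 1 run of capitals. The match nearest to the 5′ end began at -104 from the gene start in Ifit1, -156 in Ifit3, -188 in Ifit3b, -78 in Isg15, -120 in Rsad2 and -213 in Cxcl10. Of the 41 genes, 31 had an entry in the promoter table, and 11 of those (35.5%) held a match in this window. The share over all 27025 genes of the table was 3.46%. The other 5 with a match were Stat2, Oas1a, Oas3, Trim30a and Bst2. The gamma-activated site, searched as TTCNNNGAA, was present in 6 of the 31 (19.4%; Eif2ak2, Irf1, Oas1a, Ifit2, Bst2 and Psmb8) and in 8.13% of all genes. These are matches of letters only. On the GENCODE annotation of GRCm38, Ifit2 (chr19:34550694-34576419), Ifit3 (chr19:34583531-34588731), Ifit3b (chr19:34607970-34613401) and Ifit1 (chr19:34640871-34650009) lie in 1 cluster on the plus strand. Ifit3 and Ifit3b are near-identical copies, so reads could be split between them, and the same holds within the Oas and Trim30 families.

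The time course, washout and sorted experiments were deposited as 1 mean per group of normalized counts, so for these 33 libraries no spread, replicate number or test can be given, and the depth per library is unknown. A gene was compared where its mean reached 10 in at least 1 of both groups, and was counted as higher or lower where the means, after adding 1, differed by 2-fold or more. Tables of different experiments were normalized separately. Fewer cells of a type and less RNA per cell cannot be told apart in any of these bulk samples. Pluripotency genes were abundant in every group, and all 8 of those listed stayed within 2-fold in each dTAG-13 comparison, while genes of the 2-cell-like state (8 of 8 compared) were higher with dTAG-13 at 24 h, 7 days and 15 days. Ehmt2 RNA had means between 546 and 691 in the time course and washout; the degron removes the protein, so this RNA does not check the degradation.

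At 24 h of DMSO the adaptor and several sensors of the RNA pathway were well expressed, while the effectors ranged from near 0 to high means. Of the 41 genes, 18 had a mean of 10 or more in all 11 groups, 22 reached it in some groups, and Mx2, an antiviral GTPase, reached it in none. The adaptor and the constitutive sensors and factors were well expressed at 24 h of DMSO, with means of 463 for Mavs, 339 for Eif2ak2 (PKR, which halts translation on double-stranded RNA), 139 for Ddx58, 46.4 for Cgas, 559 for Stat2, 345 for Irf1, 278 for Irf9 and 243 for Irf3. Trim25, the ubiquitin ligase that acts on RIG-I, had the highest of these means at 2643, and Bst2 (tetherin), which holds budding virus at the cell surface, stood at 571. Ifih1 (2.43) and Irf7 (5.73) were low in the same cells, and Dhx58 stood at 22.4. Several classical induced effectors were also low, with means of 2.83 for Isg15, 3.03 for Ifit1, 1.99 for Ifit3, 3.48 for Rsad2 (viperin) and 4.08 for Cxcl10, a chemokine. Other effectors were not, with means of 244 for Xaf1, 152 for Dtx3l, 130 for Tap1, 86 for Oas3 and 36.4 for Ifit2. Of the interferon genes looked up, Ifna2, Ifna4, Ifnl2 and Ifnl3 were listed at 0 in all 11 groups, and Ifnb1 was listed at 0 in all but dTAG 15 d (0.287). Ifnk was not silent, with means of 45.7 and 51.5 in the GFP-positive DMSO and dTAG-13 groups, and Ifng reached 7.78 in the GFP-positive dTAG-13 group.

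At 24 h of EHMT2 depletion, 1 of 25 genes compared was higher and none was lower, against 3.58% higher and 2.11% lower (5.7% in all) of 18451 genes. That gene was Ifit2, which binds viral RNA, with a mean of 36.4 in DMSO and 91.1 with dTAG-13 (log2 ratio 1.30). Over the same 24 h MERVL-int went from 5296 to 28792 (2.44), or from 0.035% to 0.188% of all counts. The genes that lead an interferon response stayed low, with dTAG-13 means of 4.18 for Isg15, 4.89 for Ifit1, 2.49 for Ifit3 and 7.63 for Irf7. Rsad2 had means of 3.48 and 9.5, both under 10. The median log2 ratio of the 25 genes was -0.14, and that of all genes was 0.00.

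At 7 days, 2 of 28 genes were higher and 4 were lower, against 5.38% higher and 4.56% lower (9.95% in all) of 18602 genes. MERVL-int had by then gone from 5074 to 80321 (3.98). The higher genes were Oasl2, an OAS-like protein with ubiquitin domains, with means of 9.65 and 24.6 (1.27), and Ifit2 with 58.9 and 129 (1.12). The lower genes were Dhx58 (LGP2), a helicase that tunes RIG-I and MDA5, Oas3, which makes the 2-5A messenger that activates RNase L, and the antigen-processing genes Tap1 and Psmb9. Their means were 30.7 and 11.9 for Dhx58 (-1.30), 164 and 66.3 for Oas3 (-1.29), 161 and 56.4 for Tap1 (-1.5), and 16.6 and 6.89 for Psmb9 (-1.16). Stat2 and Bst2 lay just inside the 2-fold limit, at 627 and 315 for Stat2 (-0.99) and 595 and 302 for Bst2 (-0.97). Thus the genes past 2-fold pointed both ways.

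Several induced effectors were above their DMSO means at 7 days but stayed under 10 in both groups and were not compared. Their DMSO and dTAG-13 means were 3.17 and 8.21 for Isg15, 3.63 and 8.62 for Ifit1, 1.52 and 5.65 for Ifit3, 2.55 and 8.4 for Rsad2, and 1.32 and 4.16 for Ifih1. Cxcl10, at 5.14 and 11.2, was compared and lay within 2-fold. The sensors and factors with higher levels differed less, with means of 173 and 233 for Ddx58, 365 and 322 for Eif2ak2, 450 and 372 for Mavs, 249 and 254 for Irf3 and 228 and 291 for Irf1. Fibroblast genes, a marker of feeders, had a median log2 ratio of 0.65 over 10 compared, with 2 of them past 2-fold, and their part in these values was not tested. Between the DMSO groups alone, 7 days against 24 h, 1 gene was higher and 2 were lower of 26, against 0.862% higher and 1.49% lower (2.36% in all) of 18204 genes. These were Trim30a (2.29 and 10.6), Zbp1 (27.6 and 11.2) and Xaf1 (244 and 119), so these genes also differed between cultures that had no dTAG-13.

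**Figure D1:**
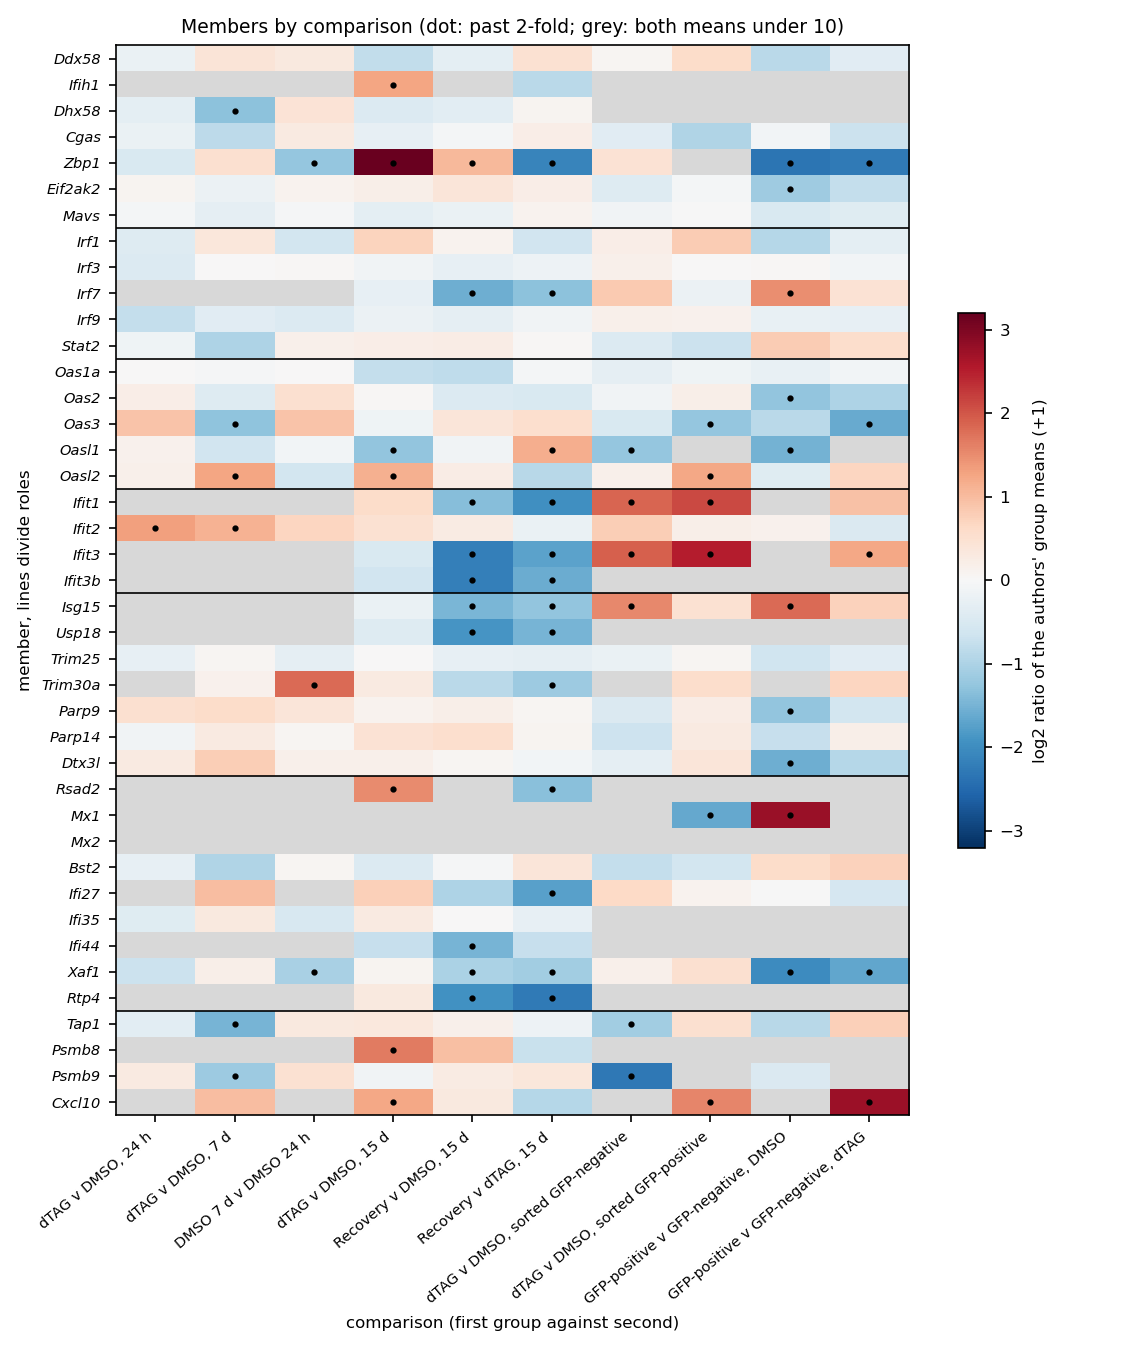
Heat map of the log2 ratio of the authors' group means (after adding 1) for the 41 genes in rows, divided by role, over 10 comparisons in columns. Dots mark ratios past 2-fold and grey cells have both means under 10. Dots are fewest at 24 h (1 gene) and most numerous in Recovery against dTAG 15 d (13 genes).

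At 15 days of depletion, 6 of 39 genes were higher and 1 was lower, against 5.48% higher and 0.856% lower (6.33% in all) of 17869 genes. The higher genes came from several roles. Zbp1, a sensor of Z-form nucleic acid that can trigger necroptosis, had the largest ratio, with means of 8.87 in DMSO and 87.3 with dTAG-13 (3.16). Ifih1 (MDA5), the sensor of long double-stranded RNA, had means of 5.18 and 13.8 (1.26).

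Among effectors, Oasl2 had means of 95.5 and 211 (1.13), Rsad2 of 3.96 and 13.1 (1.5), the immunoproteasome subunit Psmb8 of 6.85 and 24 (1.67), and Cxcl10 of 8.83 and 22.1 (1.23). Oasl1, a related protein known to restrain Irf7 translation, was lower (30.5 and 12.1, -1.27). Zbp1, Ifih1, Rsad2, Psmb8 and Cxcl10 had a DMSO mean under 10 and entered through the dTAG-13 group, so they had to be higher to be compared. Only Oasl2 and Oasl1 were past 2-fold among the 34 genes with both means at 10 or more.

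Isg15, Ifit1, Ifit3 and Irf7 were within 2-fold at 15 days. Their DMSO and dTAG-13 means were 122 and 105 for Isg15, 32 and 48.3 for Ifit1, 76.5 and 54.6 for Ifit3 and 15.4 and 12.7 for Irf7. Ddx58 was at 388 and 224, Irf1 at 373 and 615, Stat2 at 167 and 192, and Irf9 at 258 and 227. The median log2 ratio of the 39 genes was 0.10, beside -0.02 for all genes, while MERVL-int went from 5617 to 147295 (4.71) and the LINE family L1Md_A from 1940 to 4916 (1.34). Of the 10 fibroblast genes compared, none was past 2-fold and the median was 0.36.

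**Figure D2:**
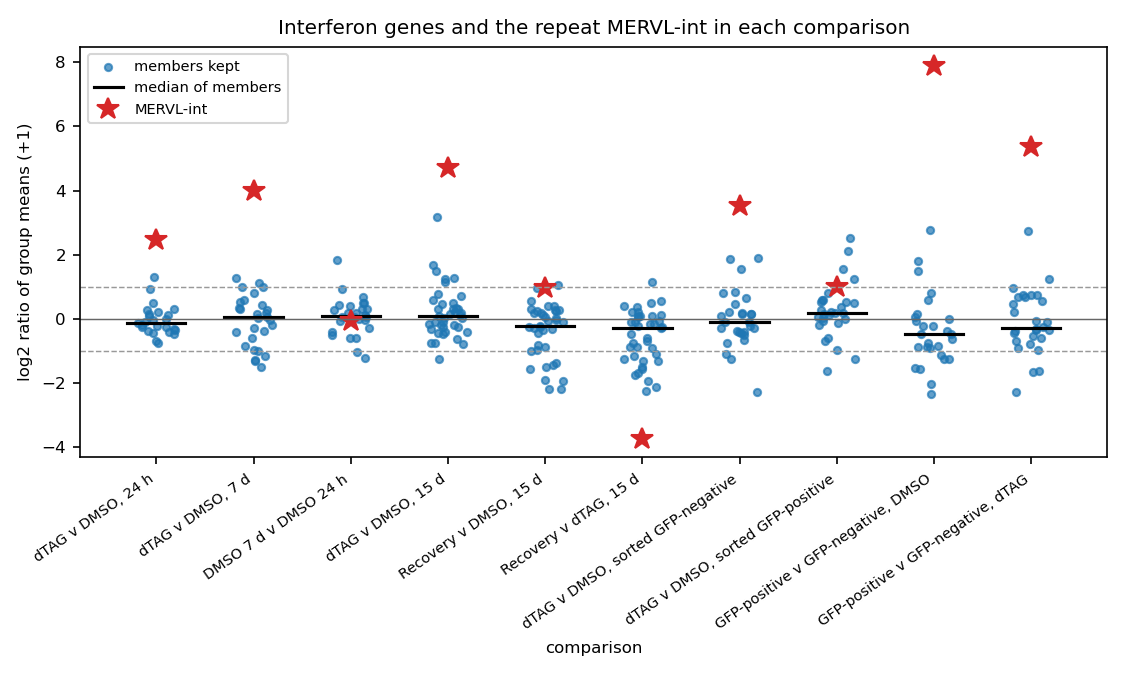
Log2 ratio of group means for each interferon-related gene compared (blue points), their median (black bar) and the retrovirus MERVL-int (red star) in 10 comparisons, with dashed lines at 2-fold. The medians lie between -0.48 and 0.19, while MERVL-int ranges from -3.74 to 7.90.

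After removal of dTAG-13, several induced effectors had lower means than in either continuous treatment, while others did not. In Recovery against DMSO 15 d, 9 of 37 genes were lower and 1 was higher, against 1.25% lower and 1.6% higher (2.85% in all) of 17365 genes. The lower genes included 3 of the 4 IFIT genes, Isg15 and its protease Usp18, and the transcription factor Irf7. MERVL-int in Recovery was 11016, closer to DMSO (5617) than to dTAG-13 (147295).

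Among the IFIT genes, the means in DMSO 15 d, dTAG 15 d and Recovery were 76.5, 54.6 and 16.1 for Ifit3, 38.9, 25 and 7.7 for Ifit3b, and 32, 48.3 and 11.7 for Ifit1. Isg15 followed the same order of Recovery below both others, at 122, 105 and 43.7, and so did Usp18 at 14, 10.4 and 3.03. Irf7 stood at 15.4, 12.7 and 4.53. The log2 ratios of Recovery to DMSO were -2.18 for Ifit3, -2.20 for Ifit3b, -1.37 for Ifit1, -1.46 for Isg15, -1.90 for Usp18 and -1.57 for Irf7. The remaining lower genes were Rtp4 (27.4 and 6.37, -1.95), a chaperone of receptors with antiviral activity, Ifi44 (21.9 and 7.13, -1.49) and Xaf1 (101 and 49.7, -1.0), a gene that promotes apoptosis. Zbp1 was the gene higher past 2-fold (8.87 and 19.3, 1.04). In all, 15 of the 37 genes had a ratio above 0, among them Oasl2 (95.5 and 113), Ifit2 (98.6 and 118), Psmb8 (6.85 and 14.4) and Cxcl10 (8.83 and 11.2). For 6 of the 10 genes past 2-fold, the mean on the lower side was under 10, which fixed their direction. Ifit3b, Usp18, Irf7, Rtp4 and Ifi44 had to be lower in Recovery to be compared, and Zbp1 had to be higher. Among the 28 genes with both means at 10 or more, 4 were past 2-fold. No share over all genes was counted at that limit.

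Against dTAG 15 d, Recovery was lower in 12 of 39 genes and higher in 1, Oasl1 (12.1 and 28.3, 1.16), against 6.99% lower and 1.44% higher (8.42% in all) of 17936 genes. Both comparisons share the Recovery libraries, so they are not independent. Of the 13 genes past 2-fold, 6 had a Recovery mean under 10 (Usp18, Rtp4, Ifit3b, Rsad2, Irf7 and Trim30a). They entered through the dTAG-13 group, so they had to be lower to be compared. Among the 31 genes with both means at 10 or more, 7 were past 2-fold, and no share over all genes was counted at that limit. Zbp1 was lower by 2.12 on the log2 scale, Rtp4 had a ratio of -2.26, Ifit1 of -1.95, Ifi27 of -1.75 (45.1 and 12.7), Ifit3 of -1.70, Ifit3b of -1.58 and Usp18 of -1.5. Ratios nearer the limit were -1.33 for Rsad2 (13.1 and 4.61), -1.31 for Irf7, -1.25 for Isg15, -1.16 for Trim30a (19.7 and 8.26) and -1.10 for Xaf1. The sensors and factors at steady levels differed little, with dTAG 15 d and Recovery means of 414 and 446 for Mavs, 283 and 328 for Eif2ak2, 333 and 299 for Irf3 and 192 and 198 for Stat2. Oasl2 (211 and 113) and Ifih1 (13.8 and 7.11) were also lower in Recovery, within 2-fold.

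Fibroblast genes were lower in Recovery as well. All 10 compared were lower in Recovery than in DMSO 15 d, 6 of them past 2-fold, with a median log2 ratio of -1.23, and 9 were past 2-fold against dTAG 15 d (median -1.33). The summed level of the list was 15101 in DMSO, 18113 with dTAG-13 and 8502 in Recovery. Its largest parts were Fn1 (5284, 6689 and 3250 in that order) and Vim (5623, 6304 and 3560). The collagens Col1a1 and Col1a2 had means of 520, 886 and 136 and of 759, 990 and 296 in that order, and Thy1 of 829, 916 and 347. Between DMSO and dTAG-13 at 15 days, 9 of the 10 fibroblast genes compared had a ratio above 0. Of the genes lower in Recovery than in DMSO, Isg15, Ifit3, Ifit3b, Usp18, Irf7 and Ifi44 had lower means with dTAG-13. Ifit1, Rtp4 and Xaf1 had higher ones. The part of feeder cells in the lower effector means of Recovery was not tested, and the group means allow no fit with feeder RNA as a term.

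**Figure D3:**
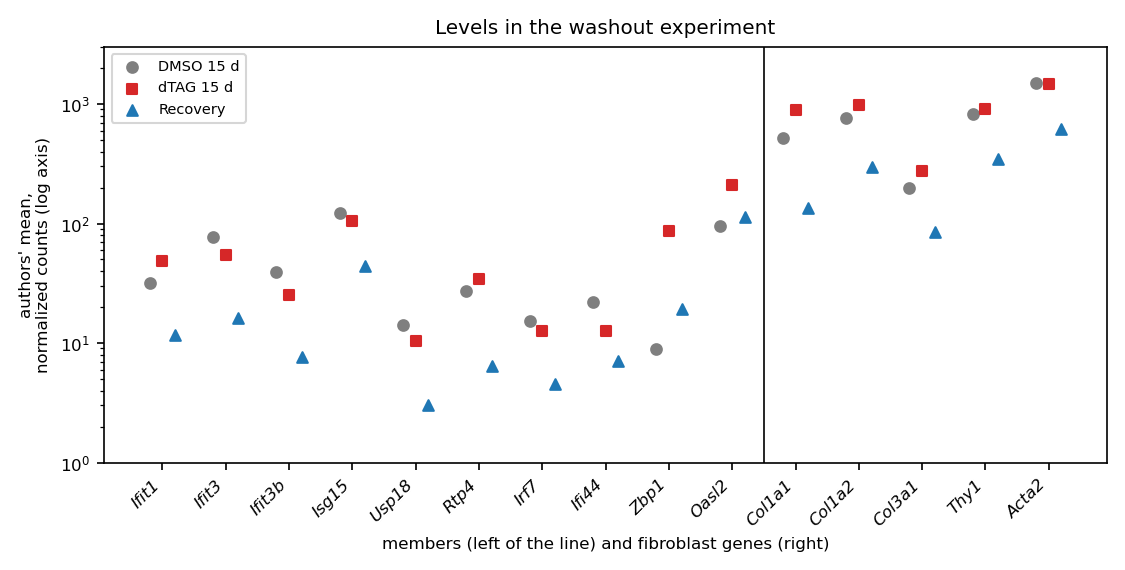
Authors' mean normalized counts (log axis) of 10 interferon-related genes and 5 fibroblast genes in DMSO 15 d (grey circles), dTAG 15 d (red squares) and Recovery (blue triangles). The Recovery mean is the lowest of the 3 for Ifit1, Ifit3, Ifit3b, Isg15, Usp18, Rtp4, Irf7 and Ifi44 and for each of the 5 fibroblast genes, while Zbp1 and Oasl2 are highest with dTAG-13.

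In the sorted experiment, Ifit1 and Ifit3 had higher means after 72 h of depletion on both sides of the gate. Both were compared only because their dTAG-13 mean reached 10, so that direction was fixed. In GFP-negative mESCs 3 of 28 genes were higher and 3 were lower, against 5.93% higher and 2.58% lower (8.51% in all) of 17142 genes. The higher genes were Ifit1 (3.14 and 14, 1.86), Ifit3 (1.95 and 10.1, 1.91) and Isg15 (4.67 and 15.5, 1.54). Each had a DMSO mean under 10, so it had to be higher to be compared. The lower genes were the immunoproteasome subunit Psmb9 (13.6 and 2, -2.29), Oasl1 (21.3 and 8.43, -1.24) and the peptide transporter Tap1 (49.6 and 22.4, -1.11). Psmb9 and Oasl1 entered through the DMSO group, so they had to be lower. Only Tap1 was past 2-fold among the 22 genes with both means at 10 or more. MERVL-int went from 6891 to 78865 (3.52) in these cells.

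In GFP-positive 2CLCs 4 of 28 genes were higher and 2 were lower, against 5.99% higher and 3.04% lower (9.03% in all) of 18281 genes. Ifit3 (3.61 and 25.3, 2.51) and Ifit1 (5.66 and 27.9, 2.12) had the largest ratios, followed by Cxcl10 (4.51 and 15.2, 1.56) and Oasl2 (8.19 and 20.6, 1.23). Again all 4 had a DMSO mean under 10, so they had to be higher to be compared. The lower genes were Mx1, an antiviral GTPase (10.6 and 2.71, -1.64), and Oas3 (23.5 and 9.39, -1.24). Both entered through the DMSO group. Of the 21 genes with both means at 10 or more, 0 were past 2-fold. Isg15 had means of 18.8 and 26.6 and Irf7 of 24.7 and 21.5, within 2-fold.

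Sensors and factors with means of 10 or more on both sides are given next. In GFP-negative cells the DMSO and dTAG-13 means were 134 and 141 for Ddx58, 375 and 346 for Mavs, 225 and 260 for Irf1, 274 and 203 for Stat2 and 348 and 204 for Bst2. In GFP-positive cells they were 73.3 and 110 for Ddx58, 268 and 266 for Mavs, 119 and 208 for Irf1, 481 and 300 for Stat2 and 521 and 344 for Bst2. Ifih1 stayed under 10 in all 4 sorted groups, reaching 6.67 in the GFP-positive dTAG-13 group.

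Fibroblast genes were higher with dTAG-13 in the sorted cells too. They were past 2-fold in 6 of 10 genes of GFP-negative cells (median 1.13, summed level 7856 and 9787) and in 7 of 10 of GFP-positive cells (median 1.28, summed level 4935 and 8926). Fn1 was the largest part of each sum, at 5956 and 7101 in GFP-negative and 3017 and 5010 in GFP-positive cells. Col1a2 had means of 91.8 and 216 in GFP-negative and 166 and 483 in GFP-positive cells. The listed genes did not all move together. Thy1 had means of 144 and 196 in GFP-negative and 561 and 554 in GFP-positive cells, so it was higher in GFP-positive cells where Fn1 was lower. The list median is therefore not a measure of feeder content. The cells were sorted on GFP, and the study's notes on a flow analysis of such lines describe a scatter gate against feeder cells. The part of fibroblast RNA in the Ifit1, Ifit3 and Isg15 values was not tested.

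Between sorted populations, most of the interferon-related genes past 2-fold under DMSO were lower in 2CLCs, while with dTAG-13 3 were lower and 2 higher. Under DMSO, 7 of 27 were lower in GFP-positive than in GFP-negative cells and 3 were higher, against 9.42% lower and 17% higher (26.4% in all) of 18303 genes. The lower genes were Zbp1 (11.1 and 1.41, -2.33), Xaf1 (189 and 45.8, -2.02), Dtx3l (211 and 70.5, -1.57), Oasl1 (21.3 and 6.76, -1.52), Parp9 (108 and 44.2, -1.27), Oas2 (40 and 16.1, -1.27) and Eif2ak2 (265 and 120, -1.13). Parp9 and Dtx3l encode partners in 1 ADP-ribosylation and ubiquitin ligase complex, and their exons overlap. The higher genes were Mx1 (0.713 and 10.6, 2.76), Isg15 (4.67 and 18.8, 1.80) and Irf7 (8.24 and 24.7, 1.48), each with a GFP-negative mean under 10. Those had to be higher to be compared, and Zbp1 and Oasl1, with a GFP-positive mean under 10, had to be lower. Among the 20 genes with both means at 10 or more, 5 were past 2-fold (Xaf1, Dtx3l, Parp9, Oas2 and Eif2ak2), all lower.

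With dTAG-13, 3 of 28 genes were lower in GFP-positive cells and 2 were higher, against 7.55% lower and 16% higher (23.6% in all) of 18244 genes. Zbp1 (15.8 and 2.47, -2.27) and Xaf1 (213 and 66, -1.67) were lower, as under DMSO, and so was Oas3 (30.9 and 9.39, -1.62). Cxcl10 (1.43 and 15.2, 2.74) and Ifit3 (10.1 and 25.3, 1.24) were higher. Zbp1 and Oas3 entered through the GFP-negative group and Cxcl10 through the GFP-positive group, which fixed their direction. Of the 24 genes with both means at 10 or more, 2 were past 2-fold, Xaf1 lower and Ifit3 higher. MERVL-int, the sequence behind the sort, took 12.6% of all counts in GFP-positive DMSO cells and 18.9% with dTAG-13, beside 0.0731% and 0.829% in GFP-negative cells. In GFP-positive DMSO cells, Ddx58 (73.3), Eif2ak2 (120), Mavs (268) and Cgas (66.3) were each below or near their GFP-negative means of 134, 265, 375 and 70.3. With dTAG-13 the GFP-positive means were 110, 115, 266 and 33.3, beside 141, 198, 346 and 54.3 in GFP-negative cells. Isg15, Irf7 and Mx1 were higher in GFP-positive DMSO cells, as given above.

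**Figure D4:**
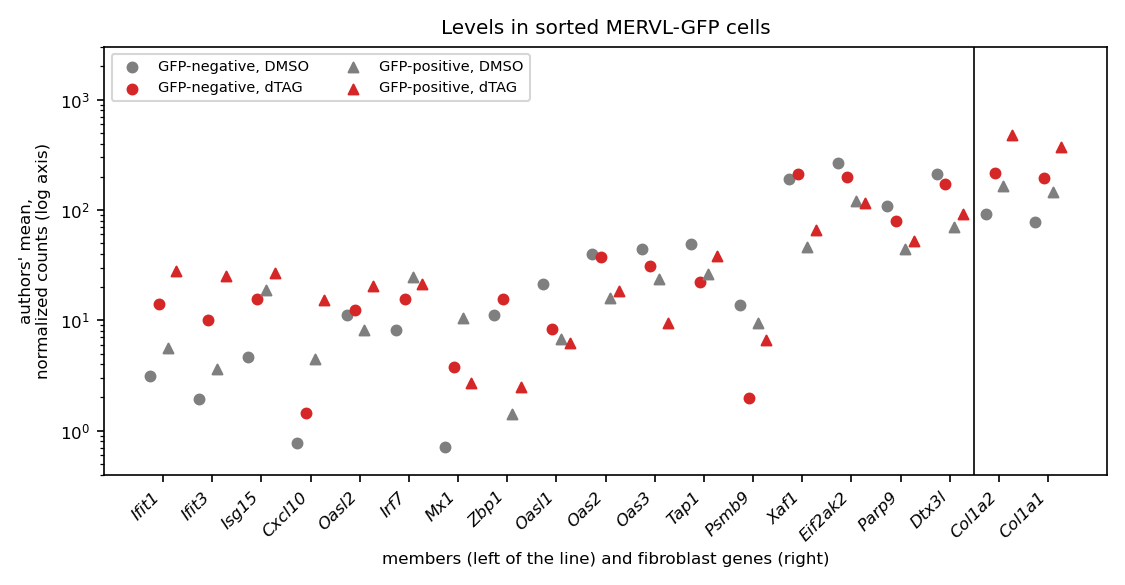
Authors' mean normalized counts (log axis) of 17 interferon-related genes and 2 collagen genes in the 4 sorted groups, GFP-negative as circles and GFP-positive as triangles, DMSO in grey and dTAG-13 in red. Ifit1 and Ifit3 are higher in red than in grey for both shapes, and Zbp1 and Xaf1 lie lower for triangles than for circles of the same colour.

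Across the 5 comparisons of dTAG-13 with DMSO (24 h, 7 days, 15 days and each sorted population), 20 of the 41 genes could be compared in all and 1, Mx2, in none. Of those compared at least once, 24 were never past 2-fold. In 10 genes the dTAG-13 mean was higher in 1 or more comparisons, in 6 it was lower in 1 or more, and in 0 it was higher in one and lower in another. Among the higher genes, only Ifit2 and, at 15 days, Oasl2 had both means at 10 or more. The others entered through the dTAG-13 group, so they had to be higher to be compared. Some lower genes, such as Psmb9 and Mx1, entered through the DMSO group in the same way. No share over all genes was counted for these numbers. Oasl2 was higher in the most comparisons, 3 of the 5 (7 days, 15 days and GFP-positive cells). At 7 days and in GFP-positive cells its DMSO mean was under 10. The GFP-negative and GFP-positive cells were split from the same treated cultures, and the time course and washout used the same clones, so these comparisons are not all independent.

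Other genes of the pathway, were taken from a list of 46, of which 45 were found. At 24 h 1 of 36 (2.78%) was past 2-fold against 5.7% of all genes, at 7 days 2 of 36 (5.56%) against 9.95%, and at 15 days 3 of 36 (8.33%) against 6.33%. In GFP-negative cells it was 1 of 33 (3.03%) against 8.51%, and in GFP-positive cells 3 of 34 (8.82%) against 9.03%. Tlr3, the endosomal receptor for double-stranded RNA, was the higher gene at both early times, with means of 4.82 and 13.7 at 24 h and 5.3 and 17.9 at 7 days, and it entered through its dTAG-13 mean. Ifnlr1, a receptor chain for lambda interferons, was the lower gene at 7 days (150 and 68.2).

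The Dppa4 experiment was deposited per library, and therefore allows a test. Each library held between 8399885 and 12710949 gene reads, and 27 of the 41 genes passed the filter on low counts, as did 17258 genes in all. The targeted gene checked the labels: Dppa4 was between 700 and 920 normalized counts in the 6 WT libraries and at 0 in the 6 KO libraries. The methods give 3 clonal lines, but the labels do not say which clone a replicate number stands for. Genes were called at an adjusted p under 0.05 in limma and a difference of 2-fold or more.

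Inhibition of EHMT2 by UNC0638 for 48 h gave no call among these genes in either genotype. In WT cells 0 of 27 were called, against 0% of all genes, with 4 of the 27 at an unadjusted p under 0.05 beside 8.71% of all genes, and edgeR and DESeq2 called 0 of the 27 as well. In Dppa4 KO cells 0 of 27 were called, against 0.411% of all genes higher and 0.0521% lower (0.464% in all), with 5 at an unadjusted p under 0.05 beside 15.4% of all, and again 0 by edgeR and 0 by DESeq2. The median log2 fold changes were 0.01 and -0.05. MERVL-int in the same WT libraries was 2199, 4355 and 12607 under DMSO and 14593, 12274 and 53609 under UNC0638.

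For the RNA sensor Ddx58, the WT libraries held 251, 263 and 231 normalized counts under DMSO and 313, 251 and 231 under UNC0638. Those groups overlapped, and the log2 fold change was 0.08 with a 95% interval of -0.32 to 0.49 (limma, adjusted p = 0.91). Ifit2 held 34.9, 18.5 and 24.5 under DMSO and 48.4, 31.8 and 64.7 under UNC0638, a log2 fold change of 0.86 that did not pass (limma, adjusted p = 0.62). Irf3 was below its DMSO values in every WT library treated with UNC0638 (303, 277 and 270 against 204, 197 and 232), at -0.42 (adjusted p = 0.56 in limma). In that comparison 2 of the 27 genes, and 19.9% of all genes, had groups that did not overlap. The Stat2 change in KO cells came nearest to the threshold, at -0.83 ± 0.23 (SE, limma, adjusted p = 0.096), with 336, 298 and 226 under DMSO and 176, 159 and 141 under UNC0638.

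Loss of DPPA4 was accompanied by a different level of 3 genes under DMSO. Oasl2 and Ifit2 were lower and Xaf1 was higher in KO than in WT cells, 3 of 27, against 1.33% of all genes called higher and 3.1% called lower (4.43% in all). By adjusted p alone 5 of 27 passed, against 6.63% of all genes. Under UNC0638 1 of 27, Oasl2, was called, again lower, against 0.973% of all genes called higher and 2.31% lower (3.29% in all), and by adjusted p alone also 1, against 4.47% of all. MERVL-int ranged from 2199 to 12607 in the WT and from 644 to 1006 in the KO libraries under DMSO.

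Oasl2 (chr5:114896936-114912234, plus strand) held 12.8, 20.9 and 25.3 normalized counts in WT under DMSO (19.7 ± 6.36, SD, n = 3) and 0, 1.02 and 1.16 in KO. The groups did not overlap. Under DMSO the same held for 3 of the 27 genes with KO above WT and 6 with KO below, and for 29.6% of all 17258 genes. The KO libraries held 2 reads in all against 57 in WT, a ratio of WT to KO of 29 with an exact 95% counting interval from 7.67 to 245, and the fitted log2 difference was -3.61 ± 0.82 (SE, limma, adjusted p = 0.016). Under UNC0638 the WT libraries held 6.16, 19.6 and 18.4 and the KO libraries 0, 0 and 0. Set against a floor of 3 reads over the group, this was at least 15.5-fold lower in KO (limma, adjusted p = 0.015).

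Ifit2 (chr19:34550694-34576419) held 34.9, 18.5 and 24.5 in WT and 3.91, 2.04 and 15.1 in KO under DMSO, a log2 difference of -2.07 ± 0.58 (SE, limma, adjusted p = 0.042). Every KO library of Ifit2 lay below every WT library, but in 29.6% of all genes the groups did not overlap either. Under UNC0638 the difference was -1.64 and did not pass (limma, adjusted p = 0.12), although DESeq2 called it (adjusted p = 0.032). Xaf1 (chr11:72301629-72313733) held 471, 165 and 103 in WT and 1039, 675 and 535 in KO under DMSO (1.84 ± 0.49, SE, limma, adjusted p = 0.035), and 1.62 under UNC0638 (adjusted p = 0.07 in limma, and 0.0023 with the replicate number as a block). That block ties WT to KO libraries by number. Deviations of same-numbered WT and KO libraries under UNC0638 correlated at 0.0627, -0.0864 and 0.124, so the blocked p-value adds no strength. The WT libraries of Xaf1 spread more than the KO libraries, with an SD of 197 around a mean of 246 under DMSO. Mavs (0.73 ± 0.20, SE, limma, adjusted p = 0.043) and Irf3 (-0.76 ± 0.20, SE, limma, adjusted p = 0.032) passed the p threshold under DMSO but lay within 2-fold. In Irf3 the groups stood apart, at 303, 277 and 270 in WT and 166, 160 and 174 in KO.

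The calls under DMSO rest on few libraries. None of the 3 remained called without WT DMSO replicate 2, without WT DMSO replicate 3 or without KO DMSO replicate 1, and 1 remained without KO DMSO replicate 2. Oasl2 under UNC0638 had an adjusted p of 0.089 in limma without WT UNC0638 replicate 2 and of 0.076 without replicate 3, so that 0 were then called, while 2 were called without WT DMSO replicate 1 or 3, WT UNC0638 replicate 1 or KO UNC0638 replicate 3. On the recovered reads edgeR called 1 of the 27 under DMSO (Oasl2) and DESeq2 called 2 (Oasl2 and Ifit2).

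Some other induced effectors had fewer reads in the KO libraries under DMSO, although most failed the filter on low counts and have no test. They were picked for 3 or fewer reads in the KO group and more than 3 in WT, so each had to have fewer in KO. The opposite case was not searched, and no share over all genes was counted, so the ratios draw no conclusion on these genes as a set. Isg15 held 6.98, 11.1 and 5.24 in WT under DMSO and 0 in all 3 KO libraries, at least 7.12-fold lower in KO against the floor of 3 reads over the group. Ifit3 had 24 reads in WT against 1 in KO under DMSO, a ratio of 24.4 with a counting interval from 3.98 to 1004, and Trim30a had 19 against 1, a ratio of 19.3 with an interval from 3.07 to 803. Usp18, the protease that removes ISG15, had 12 reads against 0 under DMSO, at least 4.07-fold lower in KO, but 4 against 3 under UNC0638, a ratio of 1.22 with an interval from 0.206 to 8.32. Psmb8 had 24 against 3, a ratio of 8.14 with an interval from 2.47 to 42.2. These intervals cover counting error only.

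Fibroblast genes were lower in the KO libraries as well, in 10 of 10 under DMSO (median -0.71, 1 called) and in 10 of 10 under UNC0638 (median -0.57, 0 called), and the part of feeders in the Oasl2, Ifit2 and Isg15 values was not tested. Cgas under UNC0638 came close to a call, with 17.6, 27.1 and 6.39 in WT and 0, 0 and 6.11 in KO (log2 difference -3.03 ± 0.86, SE, limma, adjusted p = 0.055). Cgas was called by DESeq2 (adjusted p = 0.048) but not by edgeR (adjusted p = 0.13). With the replicate number as a block it was also called (limma, adjusted p = 0.049), although that block ties WT to KO libraries by number without backing. The effect of UNC0638 itself was not shown to differ between genotypes in any gene, with 0 of 27 called by limma or edgeR and 2 (Irf3 and Bst2) at an unadjusted p under 0.05, beside 6.23% of all genes. DESeq2 gave an adjusted p for only 1 of the 27 in this comparison.

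**Figure D5:**
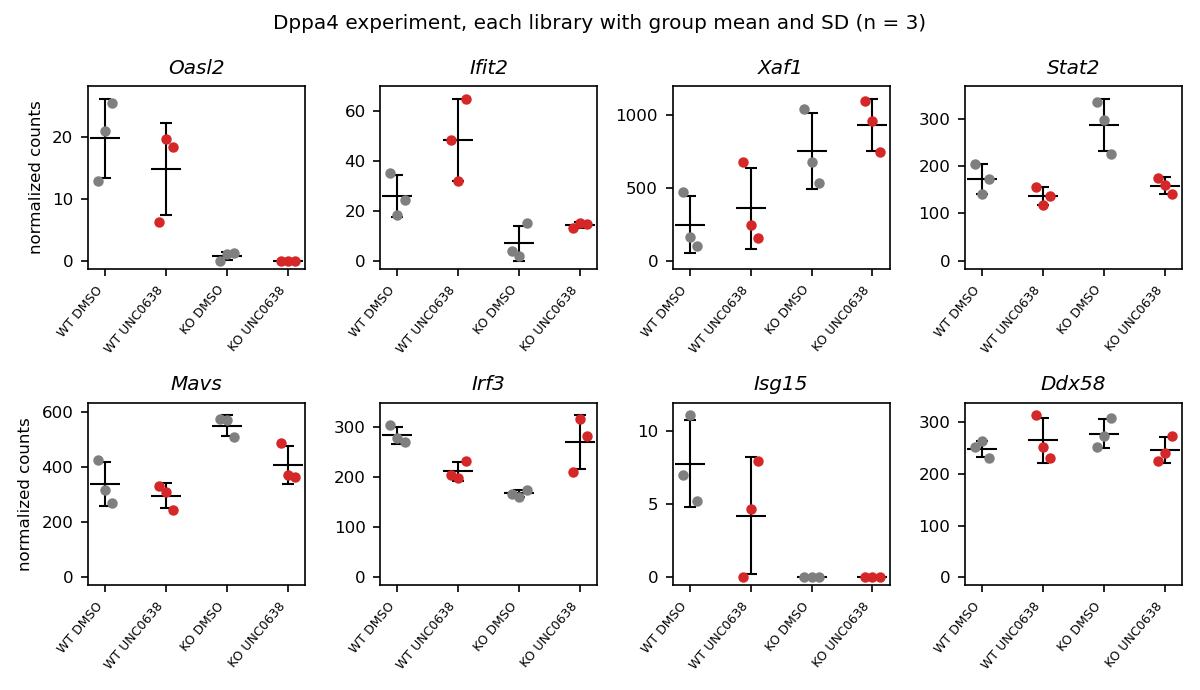
Normalized counts of 8 genes in each library of the Dppa4 experiment (points), with the group mean and SD (bars, n = 3), DMSO in grey and UNC0638 in red. Oasl2 and Isg15 are at or near 0 in the 6 KO libraries, the Xaf1 means are higher in KO than in WT, and Ddx58 overlaps across all 4 groups.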

How the data were processed

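The authors trimmed reads with Trim Galore 0.6.7, aligned them with STAR 2.7.10 to mm10, placed multimapping reads at 1 random place, counted genes and repeats with TEcounts on GENCODE vM25, and scaled counts by DESeq2 1.34.0 size factors over genes and repeats (R 4.1.0). Whether counting used strand is not given in the sources used here, so reads of overlapping genes (such as Dhx58 and Dhx58os, Irf3 and Bcl2l12, or Psmb9 and Tap1) cannot be told apart. For 33 libraries the deposited normalized signal is 1 mean per group. Log2 ratios were computed after adding 1, keeping means of 10 or more in at least 1 group, with no test. The deposited tables also hold the authors' comparisons (fold changes and p-values), which were not used.

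For the 12 libraries of the Dppa4 experiment the deposited signal is a normalized count per library, and whole reads were recovered (100% of values within 0.01 of a whole number). Genes kept by filterByExpr in edgeR 4.0.16 entered limma 3.58.1 with trend on log2(value + 1), 1 model of 4 groups, with Benjamini-Hochberg adjustment over 17258 genes (R 4.3.3). A fold change on this scale understates that of low genes. On recovered reads, edgeR called 0, 37, 659 and 574 genes and DESeq2 1.42.0 called 14, 285, 1075 and 868 for UNC0638 in WT, UNC0638 in KO, KO against WT under DMSO and KO against WT under UNC0638. limma called 0, 80, 765 and 567. The scripts were tested on simulated data.

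Replicate numbers are shared between groups. Same-numbered WT libraries deviated together under both treatments (correlations 0.246, 0.103 and 0.431), while KO libraries (0.154, -0.0923 and 0.0129) and libraries of different genotype did not in every pair, so numbers were taken to pair samples within WT only.

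The genes, lists, roles and tests were chosen with earlier results of these data known. The text names every gene past the threshold in a comparison (the 12 with the largest change where there were more, plus fixed genes) and 20 further genes whatever their change. Alternatives tried were another pseudocount, other limits on low means, median centring, TMM factors, no filter, edgeR, DESeq2, a replicate block and leaving out each library.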

Additional observations from a re-analysis of the deposited data

Results flagged for a closer look

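Irf3 carries the signal of RNA sensors to interferon genes. It was picked because its UNC0638 and DMSO libraries did not overlap in either genotype, in opposite directions. That order and the unadjusted p below are therefore not separate support. The test of the difference of UNC0638 effects between genotypes gave Irf3 an unadjusted p under 0.05 (limma), as it did for 6.23% of all genes. Bst2 also had an unadjusted p under 0.05 in that test (0.81, limma, unadjusted p = 0.045, adjusted p = 0.78). The Irf3 values were 303, 277 and 270 normalized counts in WT under DMSO and 204, 197 and 232 in WT under UNC0638. In KO, Irf3 held 166, 160 and 174 under DMSO and 210, 315 and 281 under UNC0638. The UNC0638 effect on Irf3 was 1.09 higher in KO than in WT on the log2 scale (SE 0.28, limma, unadjusted p = 0.0013). The adjusted p over all genes was 0.78 (limma), so it fails the correction. All 3 WT libraries under UNC0638 lay below every WT library under DMSO, and all 3 KO libraries under UNC0638 lay above every KO library under DMSO. Irf3 shares exon sequence with Bcl2l12 on the other strand.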

How the results depend on the processing

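No called value changed direction under any alternative run. Among all 135 fitted values in the Dppa4 experiment, 9 differed in sign between limma and edgeR and 9 between limma and DESeq2, all at a limma adjusted p of 0.77 or more. Among counts of genes past the threshold, 109 of 138 values stayed within 1.5 times the reported one. With means of 1 or more instead of 10, 4 of 40 genes were past 2-fold at 24 h (4 higher, against 10.8% of all genes) and 11 of 40 at 7 days (7 higher and 4 lower, against 15.1%), so the balance at 7 days turned from mostly lower to mostly higher. The counts were 11 in GFP-negative (8 higher, against 15.7%), 11 in GFP-positive cells (9 higher, against 18.3%) and 8 between populations with dTAG-13 (5 higher, against 30.4%). With means of 50 or more, they were 3 at 7 days, 1 between DMSO groups, 2 at 15 days, 3 and 4 for Recovery against DMSO and dTAG-13, 0 in GFP-negative and 0 in GFP-positive cells, and 4 and 1 between populations under DMSO and dTAG-13. Raising the pseudocount to 5 gave 8 for Recovery against dTAG-13. For KO against WT under DMSO, edgeR gave 1 and adjusted p alone 5, and under UNC0638 DESeq2 gave 3 (Oasl2, Ifit2 and Cgas). With the replicate number as a block, KO against WT under UNC0638 gave 3 (Oasl2, Xaf1 and Cgas) in place of 1, and under DMSO 3. That block ties WT to KO libraries by number, although numbers were taken to pair samples within WT only. The block changed no other count. A block within genotype, added after seeing the data, gave 0 in its 3 comparisons. Leaving out 1 library gave 0 to 3 for KO against WT under DMSO, 0 to 2 under UNC0638, and 0 in the other comparisons. Of 328 values of single genes, 291 kept their side of the threshold and 37 did not. Several effectors, among them Ifit1, Ifit3, Rsad2 and Cxcl10, are under 10 in the DMSO groups of the time course and sorted cells, so their ratios there rest on few reads.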

Other observations

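Ifnk, an interferon of the type I family known from the skin, had the highest mean in any group among the 8 interferon genes looked up (Ifnb1, Ifna2, Ifna4, Ifnk, Ifne, Ifnl2, Ifnl3 and Ifng). It was listed at 0 in all 7 groups of the time course and washout. In the sorted cells its means were 2.54 in GFP-negative DMSO, 3.3 in GFP-negative dTAG-13, 45.7 in GFP-positive DMSO and 51.5 in GFP-positive dTAG-13. It was therefore high in 2CLCs under both treatments, with no replicate value to give a spread. Ifng reached 7.78 in the GFP-positive dTAG-13 group and Ifne 0.282 in dTAG 24 h.

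In WT under DMSO, MERVL-int (2199, 4355 and 12607) and Xaf1 (471, 165 and 103) both spread widely between libraries. Xaf1 was in the opposite order to MERVL-int, and 3 libraries are too few for a correlation.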
